A study of Mus musculus with 9 samples.

Results

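Parp3 and 7 related genes of the poly(ADP-ribose) polymerase (PARP) family were followed in mouse CD4+ T cells before and after activation at a normal or a febrile temperature. The genes are Parp1, Parp2, Parp3, Parp4, Parp6, Parp8, Parp11 and Parp16, 8 of the 55573 gene identifiers in the count tables. They were taken by name from a set proposed with the levels in these same libraries in view. All 3 comparisons were therefore open to that choice, and the members' values are given as a description, without p-values. "Rose" and "fell" are used only for a gene that passed the threshold of the fit over all genes (edgeR, adjusted p under 0.05), and all 8 genes had enough counts to enter it.

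RNA came from splenic CD4+ T cells of B6 mice, with 3 libraries in each of 3 groups. Naive cells were untreated. Activated cells spent 3 hours in wells coated with anti-CD3 and anti-CD28, a pair of antibodies that together trigger the T cell receptor and its costimulation, with the incubator set to 37 °C or to 39 °C. No genotype, age or animal number is given. Whether the libraries within a group stem from different animals or wells is unknown, so p-values measure the spread between these libraries, which may be technical. The series title places the comparison of the temperatures in a study of fever and T helper differentiation. Whether the naive cells were kept in medium is not described, so culture and activation cannot be told apart.

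PARP enzymes take ADP-ribose from NAD+ and attach it to proteins or nucleic acids. PARP1 and PARP2 build chains of it at DNA breaks, PARP3 adds single units at breaks in both strands and acts with end-joining factors, and the other enzymes described here act mostly outside repair. Hydrolases such as PARG remove the mark, and the supply of NAD+ limits how much can be made.

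Total counts were 12647692 to 17605549 per library. Of the 11 CD4 T cell markers none was without counts in any group, and their summed level was 6030 to 7920 CPM (counts scaled to library size, the usual CPM unit) in naive, 6010 to 6360 at 37 °C and 6380 to 6880 at 39 °C. Against naive 6 of the 11 fell and 2 rose at 37 °C, against 31.8% and 30.9% of all genes. At 39 °C 5 fell and 1 rose, against 29.8% and 29.2%. Thy1 fell most, with means of 588, 223 and 305 CPM, and was the 1 marker of the 11 called between the temperatures, higher at 39 °C. Cd5 rose at both, with means of 536, 1263 and 1298 CPM. The summed markers of other spleen cells were lower after activation, though not each gene. The sum over 12 B cell markers was 778 to 926 CPM in naive, 272 to 284 at 37 °C and 297 to 310 at 39 °C. At both temperatures 10 of these 12 fell against naive, 1, Fcer2a, rose (14.4, 36.5 and 42.4 CPM in the means), and Cr2 was not called. The sum over 8 erythroid and platelet markers was 135 to 225, 2.79 to 3.22 and 2.94 to 4.18 CPM, over 11 myeloid markers 52.9 to 78.2, 38.5 to 45.5 and 41.4 to 49.1 (with Cd68 not called, at 7.28, 8.20 and 8.25 in the means), over 6 NK cell markers 18.9 to 22.3, 10.7 to 12.4 and 6.98 to 10.2, and over 2 CD8 markers 25.8 to 36.1, 13.5 to 15.1 and 12.6 to 14.6 CPM. The sum over 6 stroma and endothelium markers, of which 1 had enough counts to be tested, was 296 to 319, 131 to 136 and 157 to 162 CPM. Single genes carry some of these sums: Pecam1 that of stroma and endothelium, with means of 296, 134 and 158 CPM, and Eomes most of that of NK cells, with means of 13.2, 10.3 and 8.10 CPM. Ighm was the largest part of the B cell sum (631, 147 and 167 CPM) and Cst3 most of the myeloid sum (46.0, 33.4 and 35.2 CPM). Of the 5 myeloid markers tested 4 fell at both temperatures. Lyz2 fell further than the myeloid sum, with means of 4.80, 0.121 and 0.321 CPM. Naive library 2 stood apart in the collagen genes Col1a1 (106 counts), Col1a2 (110 counts) and Col3a1 (80 counts), which had 0 to 6 counts in the other naive libraries. Without it the same 6 members were called at 37 °C against naive, and at 39 °C Parp4 was called as well. Over all genes naive library 1 was the least like the other naive libraries, with chi-square over degrees of freedom of 43.6 and 24.4. Between naive libraries 2 and 3 this value was 10.7. Naive library 1 also had the highest shares of counts in ribosomal protein (14.8%) and mitochondrial (2.45%) genes. Ribosomal protein genes took 10.4 to 14.8% of counts in naive, 7.92 to 9% at 37 °C and 8.39 to 10.2% at 39 °C, and mitochondrial genes 1.67 to 2.45%, 1.39 to 1.49% and 1.5 to 1.61%. The part of these shifts in the activation results was not tested, and in bulk RNA fewer cells of a type and less RNA per cell cannot be told apart.

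Between 39 °C and 37 °C 1 of the 8 genes passed the threshold, Parp3, against 0.758% of the 13328 genes tested (0.623% lower, 0.135% higher). The groups did not overlap for 2 members, Parp3 and Parp8, both lower, against 20.9% of all genes (10.3% lower, 10.7% higher). The median log2 fold change of the members was -0.054 and that of all genes 0.004. The remaining 7 members stood between -0.14 and 0.10. At 37 °C against naive 2 members rose and 4 fell, against 62.7% of all genes called (30.9% higher, 31.8% lower), and the groups of the same number in each direction did not overlap, against 65.4% of all genes (32.7% higher, 32.7% lower), with a median of -0.099 for the members and -0.002 for all genes. At 39 °C against naive 1 rose and 5 fell, against 58.9% of all genes called (29.2% higher, 29.8% lower), and again as many did not overlap, against 61.3% (30.8% higher, 30.5% lower), with medians of -0.217 and -0.003. These last comparisons share the naive libraries, and since the members were chosen on these levels nothing is read from their counts. The background between the temperatures itself moved from 37 to 291 genes when 1 library was left out, the highest being without naive library 1 and the lowest without 39 °C library 2.

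**Figure D1:**
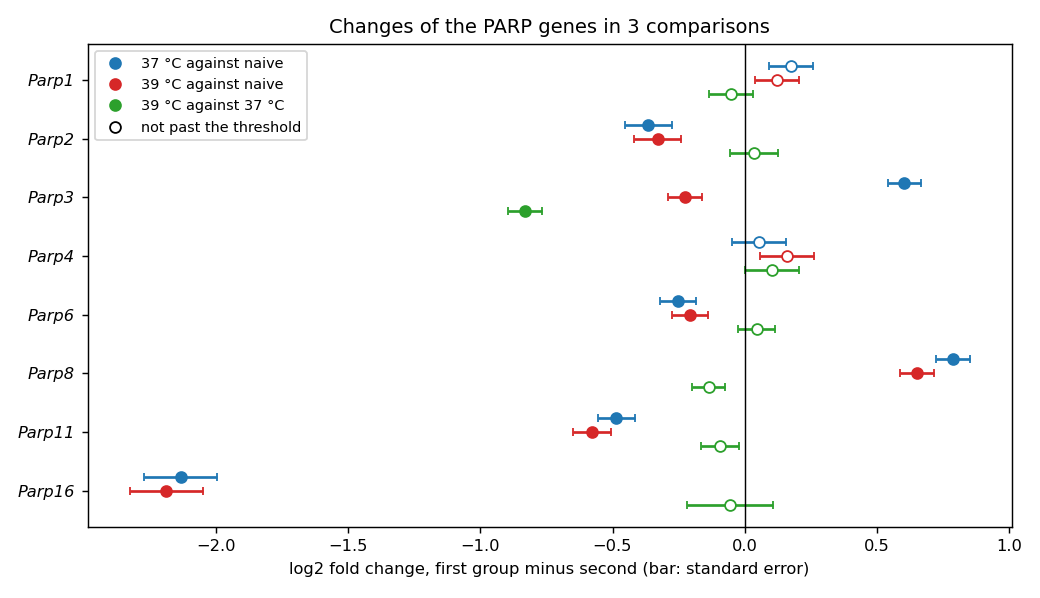
Log2 fold changes (horizontal axis, first group minus second) of the 8 PARP genes with their standard errors in the 3 comparisons, filled where the gene passed the threshold over all genes. Parp3 alone is past it between 39 °C and 37 °C, at -0.83.

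Parp3 was higher than naive after activation at 37 °C and lower than naive after activation at 39 °C. The naive libraries had 90.1, 85.0 and 88.7 CPM, the 37 °C libraries 137, 129 and 135 CPM, and the 39 °C libraries 76.9, 78.1 and 70.7 CPM. The 3 groups did not overlap, with every 37 °C library above every naive library and every 39 °C library below them. At 37 °C Parp3 rose over naive by a log2 fold change of 0.60 ± 0.064 (± gives the standard error of the fit, n = 3 per group). At 39 °C it was lower than at 37 °C by 1.78-fold (log2 fold change -0.83 ± 0.064) and lower than naive by 1.17-fold (-0.23 ± 0.065). The fall below naive was lost without 39 °C library 3 (-0.18), whereas the difference between the temperatures stayed between -0.86 and -0.79 and past the threshold under all 15 alternatives run. Between the temperatures some marker sums and the mitochondrial share also did not overlap. The sum of CD4 T cells, that of B cells, with Ighm as its largest part, that of stroma, carried by Pecam1, and the mitochondrial share were higher at 39 °C. The NK cell sum, carried mostly by Eomes, was lower at 39 °C. The part of these shifts in the Parp3 difference was not tested. Among 83 genes that fell between the temperatures, 34 had a larger fall than Parp3.

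**Figure D2:**
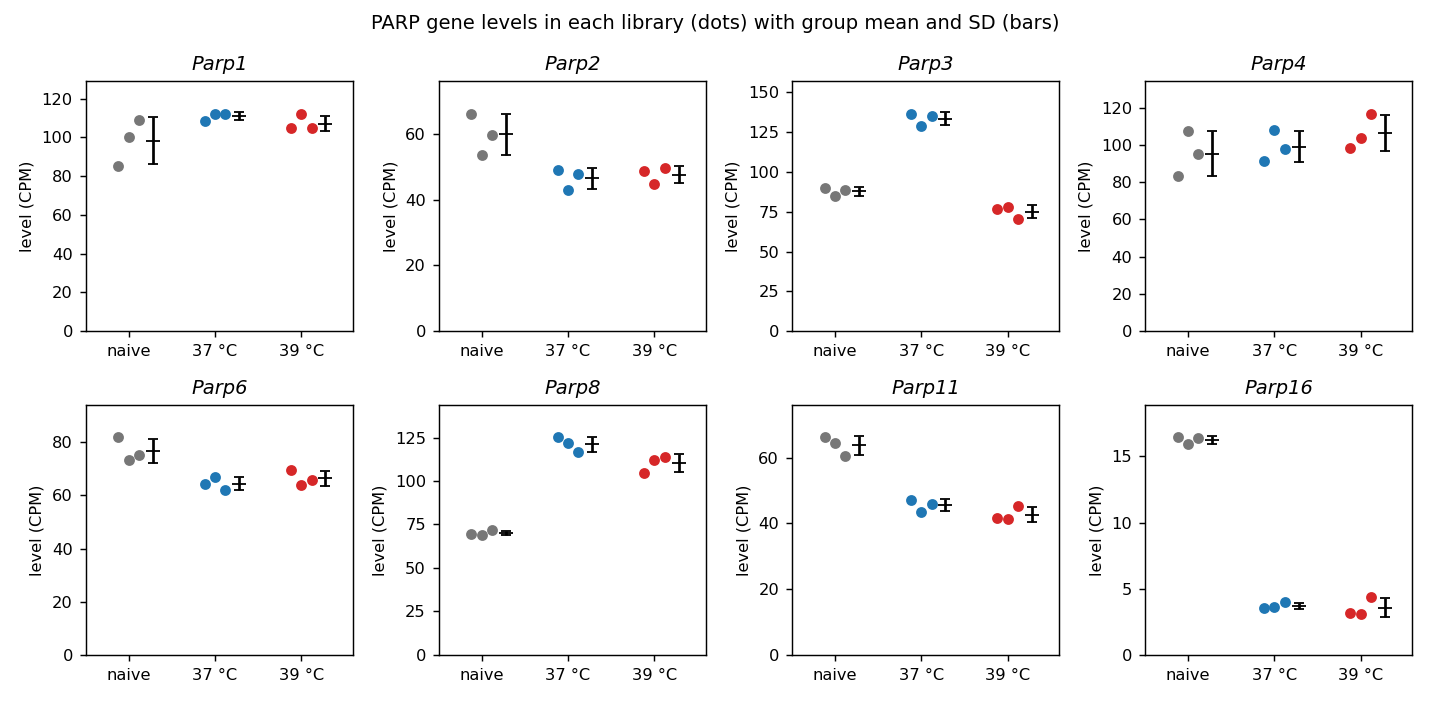
Level of each PARP gene in CPM (vertical axes, from 0) in the 3 naive, 3 37 °C and 3 39 °C libraries (dots), with the mean and SD of each group beside them. Parp3 is high at 37 °C alone (129 to 137 CPM), Parp8 is high at both temperatures, and Parp16 is low at both.

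Parp3 (ENSMUSG00000023249) lies on the minus strand of chromosome 9 at 106470322 to 106476949 (GRCm38, GENCODE M21), with 10 exon blocks. Rrp9, which starts nearby on the opposite strand, encodes a protein of the U3 nucleolar particle used in making ribosomes. The Parp3 start lies 320 bp from the nearest Rrp9 transcript start, and 1 other Rrp9 transcript begins inside Parp3, 986 bp from the Parp3 start. The exons of these genes share 20 bp, 0.541% of the Parp3 exons, and since the strand setting of the counting is not given, reads over these bases cannot be assigned to either gene. The promoter is shown because the genes start near each other on opposite strands, though the window does not reach the nearest Rrp9 start. The window covers chr9:106476900-106477199, 250 bases before to 50 after the RefSeq start of Parp3 (GRCm38.p6), read on the strand of Parp3.
Parp3: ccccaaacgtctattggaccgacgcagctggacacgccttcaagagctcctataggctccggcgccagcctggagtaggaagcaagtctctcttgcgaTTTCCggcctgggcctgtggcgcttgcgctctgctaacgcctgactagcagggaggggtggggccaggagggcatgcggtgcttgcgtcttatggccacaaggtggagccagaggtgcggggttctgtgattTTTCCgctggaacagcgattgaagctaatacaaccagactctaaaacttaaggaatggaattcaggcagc
Capitals here and in the other promoters mark matches, on either strand, to the letters searched. These were the heat shock element pairs GAANNTTC and TTCNNGAA, the interferon response core (GAAA and GAAA spaced by 2 bases), the AP-1 site TGANTCA and the NFAT core GGAAA. The Parp3 window held 2 NFAT cores, at -152 and -20 from the start, and no other match. An NFAT core stood in 61.3% of 32851 windows of this length.

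Rrp9 was at 63.9, 57.8 and 69.1 CPM in naive, 206, 201 and 204 CPM at 37 °C and 199, 187 and 179 CPM at 39 °C. It was thus high in all 6 activated libraries. It rose at 37 °C by a log2 fold change of 1.68 ± 0.077 (adjusted p = 3.67e-09, edgeR) and at 39 °C by 1.56 ± 0.077 (adjusted p = 7.42e-09, edgeR). Between the temperatures it stood at -0.12 ± 0.074 (adjusted p = 0.795, edgeR), against -0.83 for Parp3. The difference between the genes was not tested.

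Parp1 and Parp2, the chain-building enzymes of the DNA break response, did not follow Parp3. Parp1 was at 85.5, 100.5 and 109 CPM in naive, 109, 112 and 112 CPM at 37 °C and 105, 112 and 105 CPM at 39 °C. Its groups overlapped, mostly through the wide naive spread, and it stood at 0.17 ± 0.084 at 37 °C and 0.12 ± 0.084 at 39 °C against naive on the log2 scale. The 37 °C value passed without naive library 3 (0.26). Parp2 was at 66.1, 53.6 and 59.8 CPM in naive, 48.9, 42.9 and 47.7 CPM at 37 °C and 48.6, 44.7 and 49.5 CPM at 39 °C. Every activated library lay below every naive one, and Parp2 fell by 0.36 ± 0.088 at 37 °C and by 0.33 ± 0.088 at 39 °C on the log2 scale. Between the temperatures Parp1 stood at -0.051 ± 0.084 and Parp2 at 0.035 ± 0.089.

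Levels of different genes were compared per exon length, as RPKM (CPM per kilobase). Parp3 had the highest level of the 8 genes before activation, 23.8 ± 0.713 RPKM (SD, n = 3), and at 37 °C, 36.1 ± 1.06. At 39 °C it was at 20.3 ± 1.08 beside Parp1 at 20.3 ± 0.768, and their libraries overlapped. In naive cells Parp1 (18.6 ± 2.27), Parp2 (16.5 ± 1.72) and Parp4 (14.6 ± 1.85) came next, each overlapping the one after it. Parp6 (9.88), Parp11 (9.08), Parp8 (7.90) and Parp16 (4.18) followed in that order without overlap. At 37 °C Parp8 (13.6 ± 0.477) had moved up to overlap Parp4 (15.1 ± 1.26) and Parp2 (12.8 ± 0.864), while Parp16 remained last at 0.953 ± 0.057 RPKM. With the longest transcript as the length in place of all exons, Parp3 still came first before activation and at 37 °C. At 39 °C it was at rank 3, after Parp8 and Parp1. The order of the other genes depended on the length as well. With the longest transcript Parp8 was at rank 4 (20.4 RPKM) and Parp4 at rank 7 (14.9 RPKM) in naive cells. At 37 °C Parp8 was then at rank 2 (35.3 RPKM).

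Within the 3 enzymes of DNA breaks, Parp3 made up 40.4 ± 1.1% of the summed RPKM of Parp1, Parp2 and Parp3 before activation, 51.7 ± 0.357% at 37 °C and 37.8 ± 1.31% at 39 °C (SD, n = 3). The library values were 41.5, 40.5 and 39.3% in naive, 52.1, 51.4 and 51.5% at 37 °C and 38.5, 38.7 and 36.3% at 39 °C. The 37 °C libraries stood apart from the rest in this share. The sum of all 8 genes was 104 ± 1.55 RPKM before activation, 114 ± 0.522 at 37 °C and 97.9 ± 1.43 at 39 °C. The sizes of the share and the sum depend on the length of all exons used here. Neither was computed with the longest transcript.

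**Figure D3:**
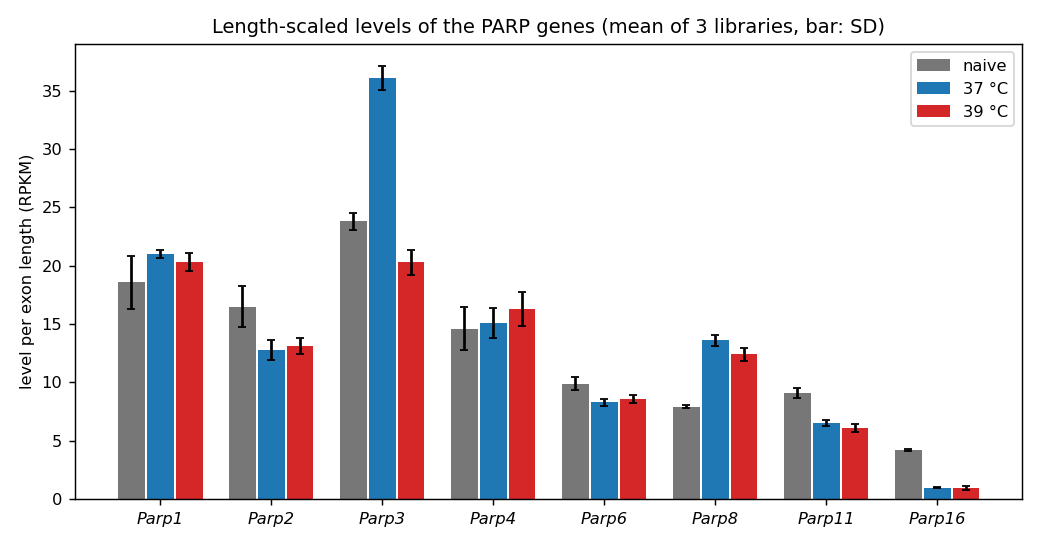
Mean level per exon length (RPKM, vertical axis from 0) of the 8 PARP genes in naive, 37 °C and 39 °C libraries, with SD (n = 3). Parp3 reaches 36.1 RPKM at 37 °C and lies level with Parp1, at 20.3 RPKM, at 39 °C.

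Parp8, Parp11 and Parp16 attach single ADP-ribose units, and their levels moved with activation at both temperatures. Parp8 was at 69.7, 69.2 and 71.6 CPM in naive, 125, 122 and 117 CPM at 37 °C and 105, 112 and 114 CPM at 39 °C. All 6 activated libraries lay above the naive ones, and Parp8 rose by 0.79 ± 0.063 at 37 °C and 0.65 ± 0.063 at 39 °C on the log2 scale. The 39 °C libraries also lay below the 37 °C ones without overlap, at -0.14 ± 0.062, which did not pass the threshold. Parp16 encodes an enzyme anchored in the membrane of the endoplasmic reticulum, known for a role in the unfolded protein response. It was at 16.4, 15.9 and 16.4 CPM in naive, 3.57, 3.58 and 3.96 CPM at 37 °C and 3.18, 3.10 and 4.39 CPM at 39 °C. It fell 4.39-fold at 37 °C (-2.13 ± 0.14) and 4.56-fold at 39 °C (-2.19 ± 0.14), with 227 to 291 counts per naive library and 39 to 63 per activated library. Among 4240 genes that fell at 37 °C, 275 fell further than Parp16.

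Parp11 encodes an enzyme of the nuclear envelope. It was at 66.2, 64.5 and 60.7 CPM in naive, 47.1, 43.6 and 46.0 CPM at 37 °C and 41.6, 41.3 and 45.3 CPM at 39 °C. All activated libraries were below all naive ones, and Parp11 fell by 0.48 ± 0.07 at 37 °C and 0.58 ± 0.07 at 39 °C on the log2 scale. Parp6, a relative of Parp8 that also adds single units, was at 81.8, 73.3 and 75.0 CPM in naive, 64.2, 66.9 and 62.0 CPM at 37 °C and 69.4, 64.1 and 65.6 CPM at 39 °C. It fell by 0.25 ± 0.069 at 37 °C and by 0.21 ± 0.069 at 39 °C, though the latter was lost without 39 °C library 2 (-0.18) or 3 (-0.20), without a count filter (-0.21) and with the naive and 39 °C libraries alone (-0.19). Parp4, a part of the ribonucleoprotein particles called vaults, was at 83.0, 107 and 95.3 CPM in naive, 91.4, 108 and 97.6 CPM at 37 °C and 98.3, 104 and 117 CPM at 39 °C. Its groups overlapped throughout, with 0.055 ± 0.10 at 37 °C and 0.16 ± 0.10 at 39 °C against naive, and the latter passed without naive library 2 (0.25).

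The promoters of Parp8 and Parp16, the members with the largest changes on activation, and of Parp4 and Parp11, which hold the interferon response core, are shown for comparison with that of Parp3. All 8 members matched the RefSeq table, with 9 windows, since Parp11 has 2. They are chr13:117025482-117025781 (minus strand), chr9:65214440-65214739, chr14:56575369-56575668 and chr6:127446590-127446889 (plus strand), all in GRCm38.p6.
Parp8: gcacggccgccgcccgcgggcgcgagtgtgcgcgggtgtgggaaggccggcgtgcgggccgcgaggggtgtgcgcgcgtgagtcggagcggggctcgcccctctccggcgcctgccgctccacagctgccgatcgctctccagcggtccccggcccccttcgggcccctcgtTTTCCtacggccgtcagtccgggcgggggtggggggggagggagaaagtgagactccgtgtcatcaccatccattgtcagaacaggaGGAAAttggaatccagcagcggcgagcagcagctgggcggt
Parp16: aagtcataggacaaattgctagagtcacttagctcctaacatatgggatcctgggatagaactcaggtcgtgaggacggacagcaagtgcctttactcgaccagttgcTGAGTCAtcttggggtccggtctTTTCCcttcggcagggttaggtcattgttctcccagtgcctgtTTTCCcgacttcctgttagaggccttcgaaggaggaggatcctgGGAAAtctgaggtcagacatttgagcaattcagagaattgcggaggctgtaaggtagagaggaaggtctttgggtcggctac
Parp4: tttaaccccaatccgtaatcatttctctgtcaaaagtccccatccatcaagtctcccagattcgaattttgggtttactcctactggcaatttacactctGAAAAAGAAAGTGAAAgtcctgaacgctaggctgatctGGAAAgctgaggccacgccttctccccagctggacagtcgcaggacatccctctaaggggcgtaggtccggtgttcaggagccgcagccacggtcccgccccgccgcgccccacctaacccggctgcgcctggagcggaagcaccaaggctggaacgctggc
Parp11: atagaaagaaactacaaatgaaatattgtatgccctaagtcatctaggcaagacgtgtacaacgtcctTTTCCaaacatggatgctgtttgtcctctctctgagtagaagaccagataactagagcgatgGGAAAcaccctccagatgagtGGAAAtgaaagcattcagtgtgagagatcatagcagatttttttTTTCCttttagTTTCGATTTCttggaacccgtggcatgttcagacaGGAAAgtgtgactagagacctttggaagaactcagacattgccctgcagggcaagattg
The RefSeq start of Parp16 lies 19337 bp from the outermost start in GENCODE M21, so its window is that of 1 of its starts. The Parp11 window shown is the one at its GENCODE M21 start. The other Parp11 window, with a start 6787 bp away, held 1 NFAT core and no interferon response core. Parp8 held NFAT cores at -78 and 10, and Parp16 an AP-1 site at -142 and NFAT cores at -119, -76 and -32. The interferon response core was found at -150 and -144 in Parp4, where the matches overlap, and at -44 in Parp11, and stood in 3.44% of all windows. Neither heat shock pair was found in the 9 windows of the members, against 7.86% of all windows for GAANNTTC and 8.52% for TTCNNGAA. The AP-1 site stood in 7.81% of all windows. A match or its absence describes these letters only.

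The remaining PARP family genes were Tiparp, Parp9, Parp10, Parp12, Parp14, Zc3hav1, Tnks and Tnks2. At 37 °C 6 of these 8 fell and 0 rose against naive, against 31.8% and 30.9% of all genes. The interferon-induced genes Parp9 (-1.17 ± 0.072, adjusted p = 4.63e-08, edgeR), Parp12 (-0.82 ± 0.10), Parp10 (-0.64 ± 0.077) and Parp14 (-0.46 ± 0.085) were among them. Parp9, which works in a pair with the ubiquitin ligase Dtx3l, went from 75.1 to 33.5 CPM in the means. Tiparp, a target of the aryl hydrocarbon receptor, fell by 0.82 ± 0.12, and Zc3hav1, an antiviral RNA-binding protein without PARP activity, fell by 0.41 ± 0.072 from the highest level of the family, 86.3 ± 3.21 RPKM in naive cells. The tankyrases, which build chains on regulators of telomeres and Wnt signalling, were not called (Tnks 0.13 ± 0.12, adjusted p = 0.371, edgeR; Tnks2 0.019 ± 0.074, adjusted p = 0.84, edgeR). At 39 °C Tiparp, Parp9, Parp10, Parp12, Parp14 and Zc3hav1 fell again, with Parp9 at -1.13 ± 0.071 and Tiparp at -0.95 ± 0.12. Between the temperatures edgeR called 0 of the 8, with 0 at unadjusted p under 0.05 and 0 by DESeq2, and their values were between -0.17 for Tnks and 0.042 for Parp9.

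Enzymes that remove ADP-ribose went in both directions at 37 °C, with 2 higher and 4 lower among 8 measured of 9 listed. Of all genes 30.9% were higher and 31.8% lower. Parg, the main enzyme that cuts chains, rose by 0.34 ± 0.07 (adjusted p = 0.00121, edgeR) and Adprhl2, which releases ADP-ribose from serine, by 0.49 ± 0.075 (adjusted p = 0.000124, edgeR). Both were chosen for naming after their values were seen. The mono-ADP-ribose hydrolase gene Oard1 (-0.85 ± 0.10), the Nudix hydrolase gene Nudt16 (-0.85 ± 0.08) and the phosphodiesterase gene Enpp1 (-0.98 ± 0.096) fell. Of 8 partners and readers of the mark 3 fell and 0 rose, against the same shares of all genes. Dtx3l fell by 0.74 ± 0.066, the gene of the histone macroH2A1, H2afy, by 0.56 ± 0.07, and Aplf, an end-joining factor that acts with PARP3, by 0.42 ± 0.16 (adjusted p = 0.0335, edgeR). Their median was -0.135.

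Of 12 genes of single-strand break and base excision repair 5 rose and 1 fell at 37 °C, against 30.9% and 31.8% of all genes. Their median was 0.165. The ligase gene Lig3, a partner of Xrcc1, rose by 1.37 ± 0.17, the endonuclease gene Apex1 by 1.32 ± 0.12 and the clamp gene Pcna by 0.68 ± 0.092. Of 12 end-joining genes 4 rose and 6 fell, against the same shares of all genes, with a median of -0.311. The nuclease gene Dclre1c (1.20 ± 0.13) and the gene of the break-site protein 53BP1, Trp53bp1 (1.12 ± 0.14), rose, and Paxx, a factor that binds Ku, fell by 1.47 ± 0.12.

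NAD+ synthesis genes were split, with 3 higher and 3 lower among 10 measured of 11, against 30.9% and 31.8% of all genes. Naprt, which starts NAD+ synthesis from nicotinic acid, rose by 1.81 ± 0.24, and Nampt, the rate-limiting enzyme of the salvage from nicotinamide, by 0.59 ± 0.082 from 53.6 to 80.8 CPM in the means. Nmnat3, an adenylyltransferase gene, fell by 1.19 ± 0.14. Of 9 measured genes of other NAD+ users, out of 10, 5 fell and 0 rose, against 31.8% and 30.9% of all genes. The NAD+ hydrolase gene Cd38 fell by 2.89 ± 0.38, from 3.67 to 0.484 CPM in the means, and the sirtuin genes Sirt5 and Sirt7 by 0.87 ± 0.18 and 0.33 ± 0.065. Cd38 is also expressed by B cells, whose 12 markers summed to 778 to 926 CPM in naive and 272 to 284 CPM at 37 °C, and their part in this fall was not tested. Of the cell-surface ADP-ribosyltransferase genes, 6 listed and 5 matched, all 4 measured fell, against 31.8% of all genes. Among the 4 were Art2b of T cells (-0.82 ± 0.076) and Art4 (-0.76 ± 0.15).

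In all, of 71 measured genes of these lists and the family, 14 rose and 32 fell at 37 °C, against 30.9% and 31.8% of all genes. Between the temperatures edgeR called 0 of the 71, with 5 at unadjusted p under 0.05, against 1061 of all 13328 genes, a like share, and 0 by DESeq2, and their median was -0.01. The 5, named after their values were seen, were Enpp1 (-0.23 ± 0.10, adjusted p = 0.618), Xrcc5, which encodes Ku80 (0.26 ± 0.08, adjusted p = 0.3), Nmnat3 (0.35 ± 0.15, adjusted p = 0.565), Sirt6 (0.25 ± 0.088, adjusted p = 0.417) and Art3 (2.09 ± 0.57, adjusted p = 0.19, edgeR, from 0.0965 CPM at 37 °C to 0.429 CPM at 39 °C, with 1 to 9 counts per library). Xrcc5 was called with the 6 activated libraries alone and without naive library 1.

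**Figure D4:**
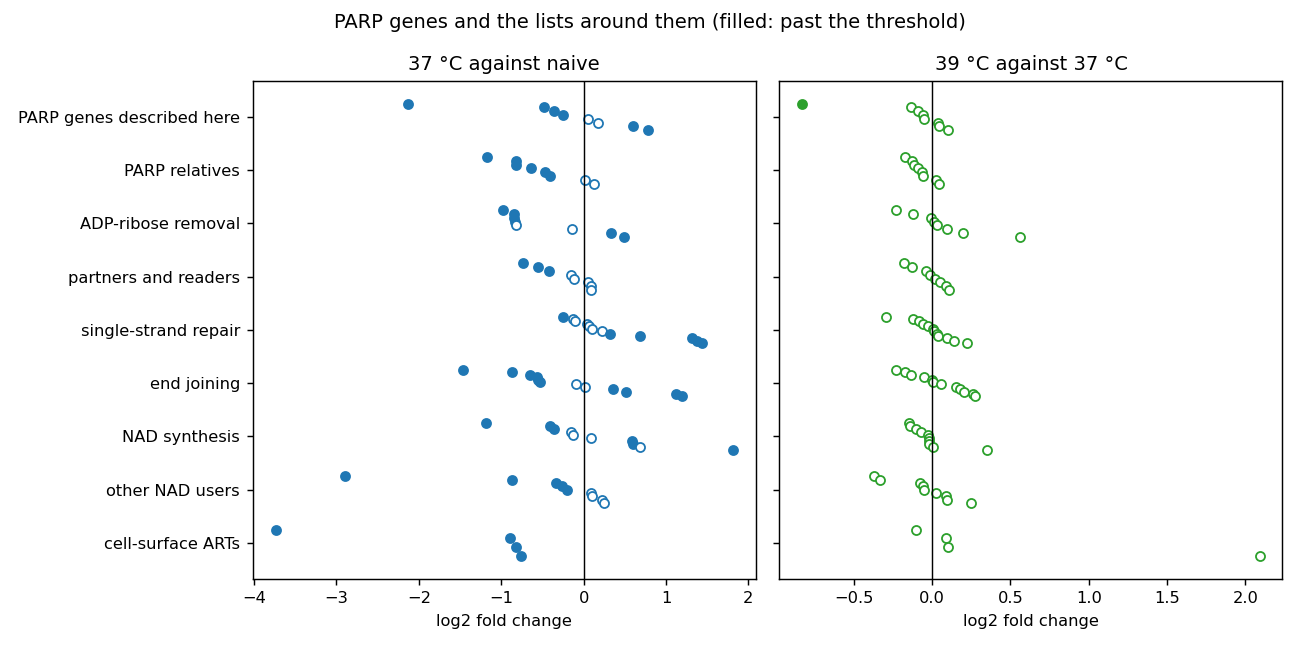
Log2 fold changes (horizontal axes, on different scales) of the 8 PARP genes described here and of the genes in 8 related lists (rows), for 37 °C against naive and 39 °C against 37 °C, filled where past the threshold over all genes. In the right panel Parp3, at -0.83, is the one filled point.

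The level pattern of Parp3 over the 9 libraries was set beside that of 11324 other measured genes with a standard symbol. The 6 most alike by Pearson correlation of log2(CPM + 0.5) were H2-Q10 (r = 0.976, Spearman rho = 0.817), Rftn1 (0.966, 0.9), Trim65 (0.96, 0.933), Trim47 (0.943, 0.967), Slc35e2 (0.941, 0.867) and Trat1 (0.934, 0.867). These points share 3 groups of libraries, so the correlation mostly reflects a level that is high at 37 °C alone, and no p is given. By Spearman rank, with ties at their best rank, Trim47 was at 1, Trim65 at 3 and Rftn1 at 6 of all genes compared, and the other 3 at 9 to 18. Rftn1, which encodes the lipid raft protein raftlin, was at 82.5 to 85.0 CPM in naive, 102 to 111 CPM at 37 °C and 81.7 to 83.1 CPM at 39 °C. Trat1, an adaptor of the T cell receptor complex, was at 112 to 122, 136 to 153 and 107 to 112 CPM. H2-Q10, a class I histocompatibility gene with near-identical copies that make its level uncertain, was at 11.1 to 12.3 CPM at 37 °C and at most 4.67 CPM in the other libraries. The ubiquitin ligase gene Trim47 had 6 to 39 counts per library. Of the other PARP genes Parp8 (r = 0.398) and Tnks (0.367) came closest by Pearson correlation and Parp6 was lowest, at -0.358. By Spearman correlation Parp8 and Parp10 came closest (rho = 0.467 for each), Tnks was at 0.283, and Parp4 was lowest, at -0.55.

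**Figure D5:**
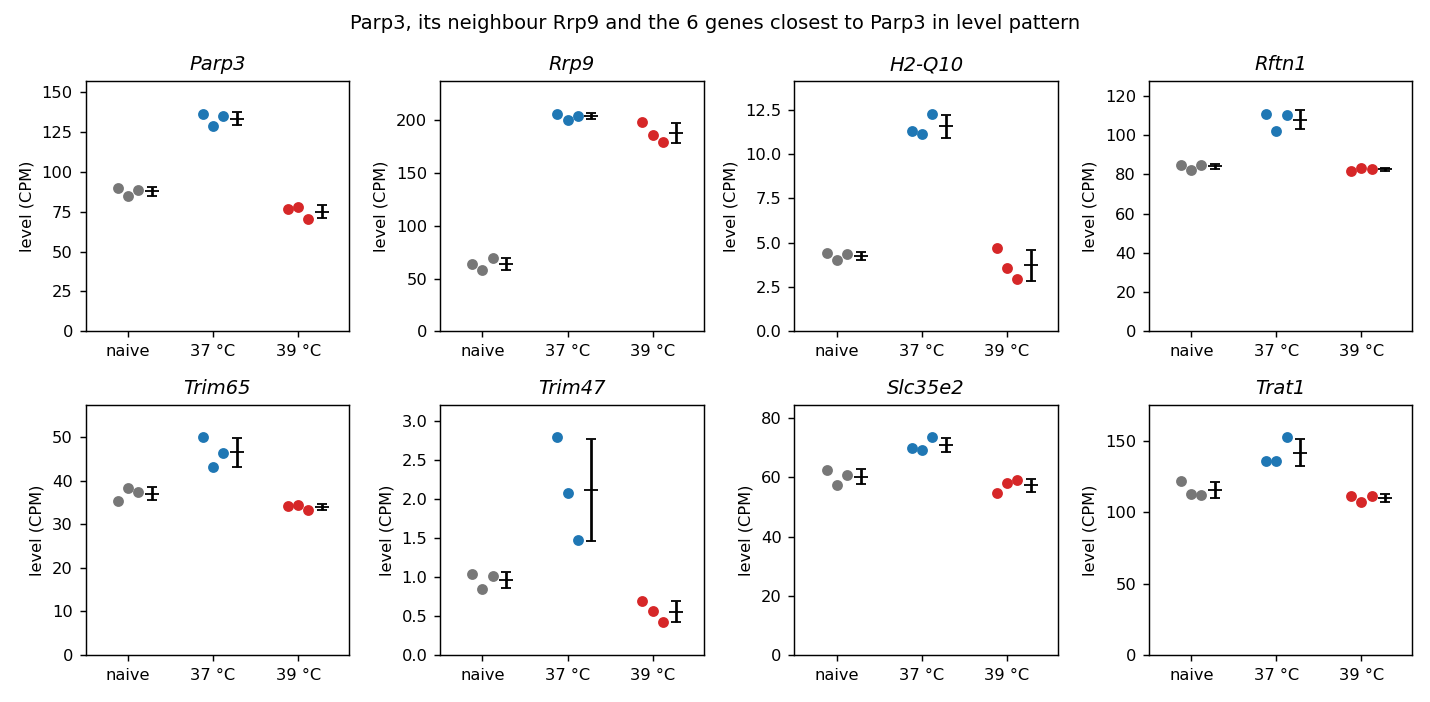
Level in CPM (vertical axes, from 0) of Parp3, its neighbour Rrp9 and the 6 genes whose levels over the 9 libraries were most like those of Parp3, in each library (dots) with group mean and SD. The 6 genes are highest at 37 °C, while Rrp9 is high at both temperatures.

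Other genes that start within 1 kb of a member or share exon bases with it were few. Cenpj, a centriole gene whose start lies 194 bp from that of Parp4, rose at 37 °C by 0.53 ± 0.11 (adjusted p = 0.000987, edgeR), whereas Parp4 stood at 0.055. Gm16573, an antisense gene that overlaps 335 bp of the Parp4 exons (5.13%), Mir6904 with 7 bp of Parp1, and the Parp2 neighbours Rpph1 (74 bp) and Ccnb1ip1 (109 bp) were below the count filter.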

How the data were processed

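The authors deposited 1 table per library of raw read counts per gene, which were used as deposited. For the making of these counts HISAT2, HTSeq, FastQC, DESeq2 and, as the build, GRCm38 are listed in the submitters' processing notes, with no version. Strandedness and the release of the gene annotation are not given in the sources used here. TRIzol RNA went into a TruSeq library kit, per the labels' protocols. Of 55573 identifiers 55480 matched GENCODE M21.

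Counts were filtered with filterByExpr (at least 10 counts, total 15), scaled by TMM and tested in 1 edgeR 4.0.16 quasi-likelihood fit of all 9 libraries (R 4.3.3), 2-sided, Benjamini-Hochberg over 13328 genes, threshold 0.05. CPM and RPKM use the TMM-scaled library sizes. The members and lists were chosen with earlier results of these data known, and the promoter motifs after the values were seen. The text names all PARP genes, of every other list the 3 largest called changes at 37 °C among genes averaging 1 CPM or more, up to 3 calls between temperatures, neighbours within 1 kb, and the 6 genes most like Parp3. In simulated counts (39 °C against 37 °C, 12893 genes) 50 of 50 changes of 2-fold, 43 of 50 of 1.5-fold and 13 of 50 of 1.25-fold were recovered, with 11 unchanged genes called. The simulation drew all 3 groups around the 37 °C means and planted changes only in genes above a minimum level. Its spread followed the trend of the fit, without a spread of each gene's own or a wider naive spread. It therefore checks the fit and does not measure its sensitivity in the real libraries. Libraries of a group differed by more than sampling noise (chi-square over degrees of freedom 2.14 to 43.6), so none was a plain copy of another. This check cannot tell repeat preparations of the same RNA from separate wells or animals. Alternatives were RLE or library size scaling, no count filter, DESeq2 1.42.0, a replicate block, the 6 libraries of a comparison alone and leaving out each library.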

Additional observations from a re-analysis of the deposited data

How the results depend on the processing

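Parp3 was the 1 member called between the temperatures under all 15 alternatives, at -0.86 to -0.79, and the members called at 37 °C against naive numbered 6 to 7 and at 39 °C against naive 4 to 7. All genes called between the temperatures, 101, became 176 without a count filter, 401 with the 6 libraries alone, 151 by DESeq2 and 37 to 291 when 1 library was left out. The highest of these was without naive library 1, and the cause was not tested. Uncalled values changed sign for Parp2 between the temperatures without 37 °C library 2 (-0.019, range over left-out libraries to 0.078), for Parp16 without 39 °C library 1 (0.023) or 2 (0.026, range from -0.235), and for Parp4 at 37 °C against naive without naive library 1 (-0.031, range to 0.147) or 37 °C library 2 (-0.005). With a replicate block on the label numbers the counts were 97 between the temperatures, 8519 at 37 °C and 8065 at 39 °C against naive, and no call of a member changed. Same-numbered libraries did not deviate together throughout (r of -0.209 to 0.388, with 4 of 9 libraries closest to their own number), so the numbers are not taken as pairs. The highest r were 0.388 for naive and 39 °C library 1 and 0.349 for naive and 37 °C library 2. Parp16, with 39 to 63 counts per activated library, has the fewest counts of the members.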
